A study of Mus musculus with 6 samples.

Results

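Genes that mark neurons and their cytoskeleton were examined in HT22, an immortalised mouse cell line derived from hippocampus and used as a neuronal model. The panel held 10 genes chosen by symbol: Tubb3, Map2, Mapt, Nes, Vim, Eno2, Gap43, Nefl, Nefm and Dbn1. A row was found for 4 of the 10, Tubb3, Vim, Eno2 and Dbn1, among the 16472 genes of the authors' deposited table. Map2, Mapt, Nes, Gap43, Nefl and Nefm had no row under their current symbol or any older symbol, and their levels and changes were not analysed here. For comparison, 58.4% of the 21896 protein-coding symbols of the RefSeq mouse gene table had a row.

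The study compared HT22 cultures exposed for 16 h to AA147 with cultures given the vehicle DMSO, with 3 libraries in each group and 6 in all. AA147 is a compound that switches on ATF6, a branch of the unfolded protein response, and NRF2, a regulator of the oxidative stress response. Its concentration is written as 10 mM in the treatment label and is given here only as written. All libraries were non-stranded mRNA from 1 immortalised line grown in serum-containing medium, and the labels do not say whether the 3 cultures of a group were started separately. The p-values therefore measure the spread between these libraries, which may be technical.

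The table gives 1 mean normalized count per gene over all 6 libraries and 1 fold change, so neither a value for a single library nor the overlap of the groups can be shown. The numerator of the fold change is not named. A positive value is read here as higher with AA147. Under that reading Nqo1, a standard target of NRF2, has a log2 fold change of 0.93 (adjusted p 1.73e-40, SE 0.067) per the authors' deposited table, and under the opposite reading every sign below is reversed. Group levels in the text were computed from the mean and the fold change taken at face value. They are not measured means and carry no error of their own.

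Neurons build their processes on microtubules and neurofilaments. Tubb3 encodes the class III beta-tubulin that is widely stained as a neuronal marker, and Map2 and Mapt (tau) encode proteins that bind microtubules in dendrites and axons. Nefl and Nefm encode neurofilament subunits, Nes (nestin) and Vim (vimentin) encode intermediate filament proteins of progenitor cells, and vimentin is also the main intermediate filament of fibroblasts and other mesenchymal cells. Eno2 encodes neuron-specific enolase, Gap43 a growth cone protein, and Dbn1 encodes drebrin, which binds actin filaments in dendritic spines and growing neurites.

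The promoters of the 2 genes that changed, Dbn1 and Tubb3, are shown beside that of Vim, the most abundant panel gene, which did not pass the test. Each is the 250 bases upstream of the annotated gene start in RefSeq, build GRCm38.p6, written 5′ to 3′ on the strand of the gene, at chr13:55488077-55488326 (minus strand) for Dbn1, chr8:123411303-123411552 (plus strand) for Tubb3 and chr2:13574061-13574310 (plus strand) for Vim. Capitals mark matches to the GC box (GGGCGG) and the CCAAT box (CCAAT) on either strand.
Dbn1: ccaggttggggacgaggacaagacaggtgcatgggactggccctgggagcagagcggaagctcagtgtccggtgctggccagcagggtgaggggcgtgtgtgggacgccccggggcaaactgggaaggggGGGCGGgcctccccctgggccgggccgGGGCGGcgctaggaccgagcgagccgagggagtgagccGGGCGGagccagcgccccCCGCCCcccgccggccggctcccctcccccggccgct
Tubb3: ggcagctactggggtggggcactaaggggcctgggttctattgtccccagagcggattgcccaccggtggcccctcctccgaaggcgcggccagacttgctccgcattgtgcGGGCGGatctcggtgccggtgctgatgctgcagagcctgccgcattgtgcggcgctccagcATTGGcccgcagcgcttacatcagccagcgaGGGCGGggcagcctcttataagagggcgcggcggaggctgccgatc
Vim: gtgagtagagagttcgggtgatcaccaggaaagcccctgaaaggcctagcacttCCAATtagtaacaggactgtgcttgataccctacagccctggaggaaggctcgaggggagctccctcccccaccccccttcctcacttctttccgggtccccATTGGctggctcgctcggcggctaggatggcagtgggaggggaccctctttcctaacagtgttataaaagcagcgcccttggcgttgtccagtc
The Dbn1 promoter had 77.2% G and C, higher than 97.4% of the 32851 promoter windows of the RefSeq table, whose median was 52.4%. These windows were taken without a filter for protein-coding genes. The Dbn1 promoter held 4 GC boxes and 0 CCAAT boxes. The Tubb3 promoter had 68% G and C and held 2 GC boxes and 1 CCAAT box, while the Vim promoter had 58.4% and held 0 GC boxes, 2 CCAAT boxes and 1 TATA box (TATAAA). The Eno2 promoter, at chr6:124769674-124769923 on the minus strand, had 54.4% and held only 1 TATA box. A GC box was found in 32.7%, a CCAAT box in 33.8% and a TATA box in 12.4% of all windows. In all 4 measured genes, Eno2 included, 0 matches were found to the antioxidant response element core (TGACNNNGC, 10.2% of all windows), the ER stress response element (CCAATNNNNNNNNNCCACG, 0.113%), the E-box (CACGTG, 6.02%), the AP-1 site (TGANTCA, 6.75%) and the cyclic AMP response element (TGACGTCA, 1.55%). Both strands were searched, and a match is only a match of letters in this window.

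Levels differed widely between the 4 genes. Vimentin mRNA was among the most abundant of all transcripts, drebrin and class III beta-tubulin mRNA lay somewhat above the middle of the range, and neuron-specific enolase mRNA lay toward the lower end. The means in the authors' deposited table were 152806 normalized counts for Vim, 1920 for Dbn1, 1199 for Tubb3 and 62.1 for Eno2, beside a median of 430 over all genes. Vim alone held 0.497% of the summed means of all genes and ranked 9th.

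Divided by the length of the canonical transcript, the level of Vim was 69679 normalized counts per kb, at rank 10 of the 14156 genes with a known length. Dbn1 had 501 per kb and lay above 71% of these genes. Tubb3 had 374 per kb and lay above 64.3%. Eno2 had 22.2 per kb and lay above 23.3%, under the median of 189 per kb. On this scale Vim was 139 times as abundant as Dbn1, 186 times as abundant as Tubb3 and 3135 times as abundant as Eno2. Dbn1 and Tubb3 were neighbours in this order, with a ratio of 1.34 that was 1.13 with coding lengths, and no spread over libraries was at hand to order them.

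**Figure D1:**
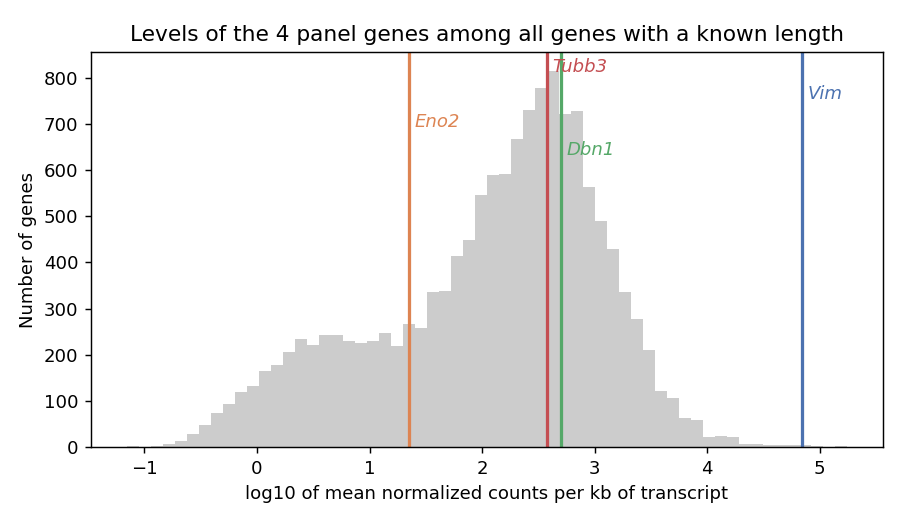
Distribution of levels over the 14156 genes with a known transcript length (x axis, log10 of mean normalized counts per kb; y axis, number of genes), with a vertical line for each of the 4 measured panel genes. Vim lies at the upper end, Dbn1 and Tubb3 near the peak of the distribution and Eno2 on its lower shoulder.

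Each of these genes was set against its own family. Among the 7 beta-tubulin genes with a row, Tubb3 made up 0.636% of the summed level per kb. Tubb5 and Tubb4b, which many cell types express, made up 61.9% and 26.9%. The level of Tubb5 was 97.3 times and that of Tubb4b 42.3 times the level of Tubb3 per kb. Tubb3 ranked 5th of the 7, with Tubb2b just below it at 0.437%, and these neighbours changed places when coding lengths were used. Eno2 made up 0.118% of the summed level of the 5 enolase genes. Most of that sum was assigned to Eno1b, at 84.1%, and Eno1, at 11.5%, which share sequence and cannot be told apart with certainty. For cytoplasmic intermediate filaments a chosen set of 7 genes with a row was used: Vim, Des, Prph, Synm, Sync, Krt8 and Krt19. Within this set Vim made up 99.9% of the summed level, and Des, the desmin gene of muscle, was the next at 0.0994%. Genes of this family outside the set were not examined.

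The coding ends of the beta-tubulins show how far Tubb3 can be told from its relatives, and are printed for Tubb3 and for the 3 family members Tubb5, Tubb4b and Tubb2a. Each sequence is the last 60 coding bases before the stop codon of the canonical transcript (GENCODE M39, build GRCm39), 5′ to 3′, and capitals mark codons for the acidic residues glutamate and aspartate.
Tubb3: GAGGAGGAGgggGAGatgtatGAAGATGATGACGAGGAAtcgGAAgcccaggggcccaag
Tubb5: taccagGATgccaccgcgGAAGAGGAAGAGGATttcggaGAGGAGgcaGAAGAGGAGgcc
Tubb4b: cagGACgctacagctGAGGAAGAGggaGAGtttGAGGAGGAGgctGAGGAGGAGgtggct
Tubb2a: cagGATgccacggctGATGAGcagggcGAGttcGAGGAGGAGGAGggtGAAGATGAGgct
In each of the 4 tails 11 of the 20 codons were acidic, although their order differed. Over the whole coding sequence Tubb3 was 81.5% identical to Tubb5, 82.1% to Tubb4b, 83.6% to Tubb2a and 86% to Tubb6. Of all 50-base windows of the Tubb3 transcript, 2.53% also occurred in a transcript of another gene, and 0 of its exon bases overlapped another gene. The share of such windows was 0.255% for Eno2, 3.25% for Dbn1 and 24.4% for Vim. It was 84.9% for Tubb2a and 62.4% for Tubb6, so their levels in the family comparison are less certain. The windows of Vim were shared with Gm54102, an annotated gene on the opposite strand that had no row, and those of Dbn1 with Prr7 on the opposite strand. Because the libraries were not stranded, reads in these overlaps, 26.1% of the Vim transcript and 4.49% of the Dbn1 transcript, cannot be assigned by strand.

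Of the 4 measured genes, 2 were higher with AA147 and 0 were lower at an adjusted p under 0.05 by the authors' deposited DESeq2 table. The same test called 20.2% of the 13597 genes that had an adjusted p, 9.05% as higher and 11.1% as lower. At an unadjusted p under 0.05 the count among the 4 was also 2.

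Dbn1 (drebrin) had the larger change. Its log2 fold change was 0.69 (adjusted p 7.76e-14, SE 0.086) per the authors' deposited table, a 1.61-fold difference with a 95% interval from 1.43 to 1.81. The implied level was 1472 normalized counts with vehicle and 2368 with AA147. Among the 755 genes that were called higher at a mean of at least 1000, Dbn1 ranked 23rd by fold change. Among all 1230 genes called higher at any mean, it ranked 161st.

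Tubb3 (class III beta-tubulin) had a log2 fold change of 0.43 (adjusted p 5.67e-05, SE 0.092) per the authors' deposited table. This is a 1.35-fold difference with a 95% interval from 1.19 to 1.53, and the implied level was 1022 with vehicle and 1376 with AA147. Tubb3 ranked 88th among the same 755 genes and 358th among all 1230. The intervals of Dbn1 and Tubb3 both lay above 1 and overlapped one another. Neither gene was called when a change of up to 0.5 on the log2 scale was taken as null.

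Vim (vimentin) had a log2 fold change of -0.08 (adjusted p 0.341, SE 0.056) per the authors' deposited table, and was not called. Its 95% interval ran from 0.877-fold to 1.02-fold, a narrow range that holds neither the fold change of Tubb3 nor that of Dbn1. The implied level was 157068 with vehicle and 148544 with AA147.

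Eno2 (neuron-specific enolase) had a log2 fold change of -0.30 (adjusted p 0.536, SE 0.29) per the authors' deposited table, and was not called. With a mean of 62.1 its interval was wide, from 0.545-fold to 1.21-fold, and a fall as large as the rise of Tubb3 would not have been detectable at this depth. The implied level was 68.6 with vehicle and 55.6 with AA147. The standard errors of the 4 genes were from 0.949 to 1.11 times the median for genes of comparable mean.

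**Figure D2:**
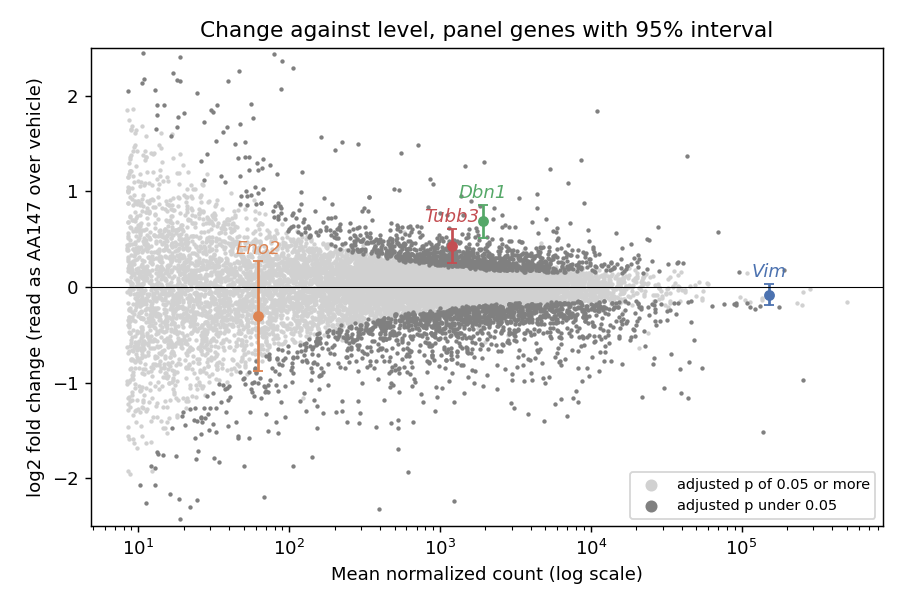
The log2 fold change (y axis, read as AA147 over vehicle) against the mean normalized count (x axis, log scale) for genes with an adjusted p, where dark points have an adjusted p under 0.05 and 43 genes lie outside the plotted range. The coloured points with 95% intervals are the 4 panel genes, of which Dbn1 and Tubb3 lie above 0 and the intervals of Vim and Eno2 cross it.

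The genes around each panel gene were described from lists of the same cytoskeletal systems, by the number that passed the same test. Of 13 other tubulin genes 11 had a row, and 3 were called higher and 1 lower, with a median log2 fold change of 0.10 beside 0.01 over all genes. Tubb4b at 0.28 (adjusted p 2.78e-05, SE 0.057), Tuba4a at 0.31 (adjusted p 0.000264, SE 0.072) and Tubb5 at 0.16 (adjusted p 0.0181, SE 0.053) were higher per the authors' deposited table. The fold change of Tubb3 was numerically larger than each of these values. Its interval, 0.25 to 0.61, overlapped those of all 3, the nearest to separate being Tubb5 at 0.06 to 0.26, and the difference between tubulins was not tested. Tubb4a, a beta-tubulin known from brain and oligodendrocytes, was lower at -1.02 (adjusted p 0.0281, SE 0.36) per the authors' deposited table, at a mean of only 36.3. Windows of 50 bases were shared with other genes for 55.9% of the Tubb4b, 41.5% of the Tubb5 and 40% of the Tuba4a transcript. The gene sharing most windows was Tubb4b-ps1 for Tubb4b, Flot1 for Tubb5 and Stk16 for Tuba4a. The 3 values are therefore less certain than that of Tubb3. Tuba8 and Tubb1 were not analysed here.

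Of 13 other intermediate filament genes 9 had a row, 2 were called higher and 0 lower, with a median of 0.12. Des was higher at 0.66 (adjusted p 0.00288, SE 0.18) and Lmnb2, a nuclear lamin gene, at 0.22 (adjusted p 0.0443, SE 0.084) per the authors' deposited table. Lmna, the lamin A/C gene and the member of this list with the highest level per kb at 15248, had a log2 fold change of 0.05 (adjusted p 0.664) per the authors' deposited table. Of the neuronal filament genes in this list, Prph (peripherin) had a mean of 4.11 and no adjusted p per the authors' deposited table, and Nefh and Ina were not analysed here, nor were Gfap and Krt18. 

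Of 20 genes for microtubule-associated proteins and their regulators 13 had a row, and 1 was called, with a median of 0.08. This was Stmn1 (stathmin 1), which binds free tubulin and was higher at 0.37 (adjusted p 0.00253, SE 0.10) per the authors' deposited table. Map1b, a microtubule-associated protein of growing axons, had a log2 fold change of 0.39 (adjusted p 0.266, SE 0.24) per the authors' deposited table, with a standard error 3.45 times the median standard error for genes of comparable mean. Map1s had the highest level per kb of the list at 1408. Dcx (doublecortin), Stmn3, Stmn4, Dpysl4, Dpysl5, Crmp1 and Map7 were not analysed here, and Stmn2, a marker of neurite growth, had a mean of 6.24 per the authors' deposited table. Most of the list was far higher, and 11 of the 13 genes had a mean of at least 1000. Among these were Map1b at 3613, Dpysl3 at 3418, Map1a at 2768, Map6 at 2580 and Dclk1 at 1798 per the authors' deposited table.

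The enzymes that act on tau were largely present even though Mapt itself was not analysed here. Of 16 kinases, activators and phosphatases 14 had a row, of which 5 were called higher and 1 lower, with a median of 0.06. Mark2 at 0.28 (adjusted p 0.000484, SE 0.067), Mark4 at 0.26 (adjusted p 0.00974, SE 0.080) and the tau tubulin kinase gene Ttbk2 at 0.42 (adjusted p 0.00145, SE 0.11) were higher per the authors' deposited table. Ppp2cb, a catalytic subunit of protein phosphatase 2A, was higher at 0.23 (adjusted p 0.0313) per the authors' deposited table. Gsk3a at 0.18 (adjusted p 0.0495) and Cdk5r1 at -0.77 (adjusted p 0.0491), which encodes the p35 activator of CDK5, passed only narrowly per the authors' deposited table. Cdk5r2 and Ttbk1 were not analysed here. Ppp2ca had the highest level per kb of the list at 1565 and was not called (adjusted p 0.811) per the authors' deposited table.

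Of 15 growth cone and actin genes, which act in the same structures as Dbn1 and Gap43, 14 had a row, 1 was called higher and 1 lower, with a median of -0.01. Marcksl1, a relative of the growth cone protein MARCKS, was higher at 0.62 (adjusted p 6.75e-09, SE 0.097) per the authors' deposited table. Fscn1 (fascin, which bundles actin filaments) was lower at -0.36 (adjusted p 1.23e-06, SE 0.065) per the authors' deposited table and had the highest level per kb of the list at 7582. Dbnl, the drebrin-like gene, had a log2 fold change of -0.01 (adjusted p 0.963, SE 0.057) per the authors' deposited table, and its interval did not overlap that of Dbn1. Basp1, a growth cone protein related in function to GAP-43, had a mean of 4204, with a log2 fold change of 0.02 (adjusted p 0.886, SE 0.076) per the authors' deposited table. Cap2 was not analysed here, and L1cam, a neurite adhesion gene, had a mean of 4.76 per the authors' deposited table. Ncam1, an adhesion gene of the same list, had a mean of 1569 per the authors' deposited table.

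The 4 other enolase genes gave 0 calls per the authors' deposited DESeq2 table and 2 at an unadjusted p under 0.05. Eno1 at -0.15 (adjusted p 0.0940), Eno1b at -0.13 (adjusted p 0.113) and Eno3 at -0.13 (adjusted p 0.246) had similar values per the authors' deposited table, and the interval of Eno2 included all 3. Eno4, at a mean of 12.5, had 0.84 (adjusted p 0.390, SE 0.62) per the authors' deposited table.

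**Figure D3:**
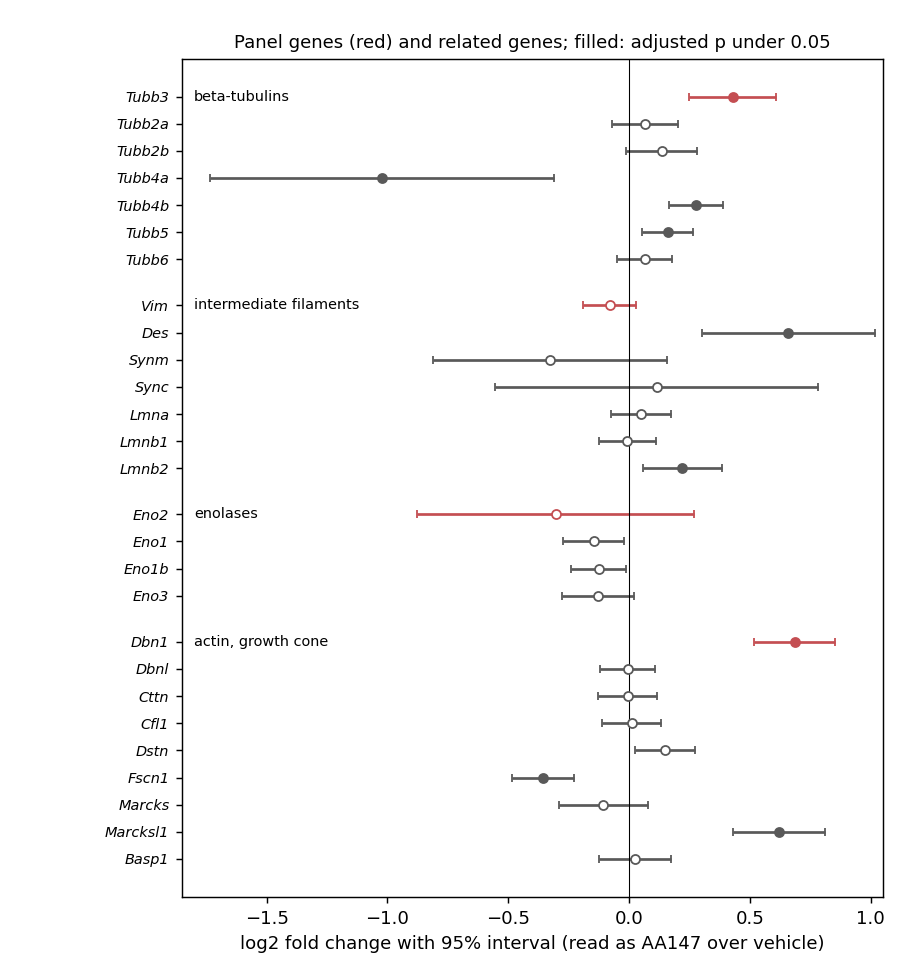
The log2 fold change with its 95% interval (x axis, read as AA147 over vehicle) for the 4 panel genes in red and related genes in grey (y axis, grouped by family), with filled circles for an adjusted p under 0.05. Tubb3 lies to the right of the other beta-tubulins, Dbn1 and Marcksl1 stand to the right of the other actin and growth cone genes, and Vim lies close to 0 with a narrow interval.

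The label names the cells hippocampal neurons, and this was compared with marker genes of neurons and of other cell types. Of 27 markers of mature neurons 9 had a row, 5 had a mean of at least 100, and 1 had a mean of at least 1000, which was Dlg4 (the postsynaptic scaffold PSD-95) at 1653 per the authors' deposited table. The defining markers Rbfox3 (NeuN), Snap25, Syt1, Syp, Elavl3, Elavl4, Grin1, Gria1, Gria2, Gad1, Gad2 and Uchl1 were, with Slc17a6, Slc32a1, Chga, Scg2 and Nrgn, among the 18 without a row and were not analysed here. Others were near the floor of the table, whose lowest mean is 1.56. Slc17a7, the vesicular glutamate transporter of hippocampal pyramidal cells, had a mean of 3.93, Syn2 one of 4.26 and Camk2a one of 10.6 per the authors' deposited table. Syn1 (synapsin I, a protein of synaptic vesicles known as a neuronal marker) had a mean of 562 and Vamp2, a vesicle fusion protein, one of 493 per the authors' deposited table. The 9 markers held 0.0103% of the summed means of all genes. Of them, 1 was called, Elavl2 (an RNA-binding protein of the Hu family), which was higher at 0.63 (adjusted p 0.00764, SE 0.19) per the authors' deposited table.

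Of 18 transcription factors of hippocampal and neurogenic lineages 5 had a row. Sox4 had a mean of 2019, Zbtb20 one of 198 and Emx2, which patterns the hippocampal field, one of 127 per the authors' deposited table. Prox1, Neurod1, Neurod2, Neurod6, Neurog1, Neurog2, Emx1, Lhx2, Bcl11b, Tbr1, Fezf2 and Sox11 were not analysed here.

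Of 11 neural progenitor markers 5 had a row, and 2 had a mean of at least 100. These were Msi2 (an RNA-binding protein of the Musashi family) at 3329 and Slc1a3 (the glutamate transporter GLAST of radial glia) at 927 per the authors' deposited table. Slc1a3 was lower at -1.30 (adjusted p 2.39e-45, SE 0.089) per the authors' deposited table. Sox1, Sox2, Pax6, Hes5, Fabp7 and Prom1 were not analysed here, and nor was the panel gene Nes.

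REST and its corepressors, which keep many neuronal genes silent in other cells, all had a row, 11 of 11, with means from 537 to 11814 per the authors' deposited table. Rest itself had a mean of 1544, with a log2 fold change of 0.11 (adjusted p 0.577, SE 0.11) per the authors' deposited table. Of the 11, 2 were called higher and 0 lower, at a median of 0.04. These were Ehmt2, a histone H3 lysine methyltransferase, at 0.22 (adjusted p 0.00140) and Kdm1a, a histone demethylase, at 0.20 (adjusted p 0.00615) per the authors' deposited table. Hdac2 had the highest level per kb of the list at 2972.

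Among the cell type lists examined, that of mesenchymal markers had the highest summed mean. Of 18 such markers 16 had a row, which held 1.78% of the summed means, and 12 had a mean of at least 1000. The rows under 1000 were Twist1 at 587, Dcn at 181, Postn at 76.9 and Tagln at 8.37 per the authors' deposited table. The means of Col1a2 at 254004 and Col1a1 at 139176, which encode type I collagen, bracketed that of Vim per the authors' deposited table. Per kb, S100a4 was the highest of the list at 89302, above Vim, while the level of Col1a2 was 0.680 times that of Vim and Vim stood at 1.24 times the beta-actin gene Actb. Of the 16, 8 were called lower and 1 higher, with a median of -0.33, and the 4 with the smallest adjusted p were Col1a1 at -1.52, Col3a1 at -1.11, Col1a2 at -0.97 and S100a4 at -0.78 per the authors' deposited table. The 95% intervals of these 4 lay below that of Vim, which was not called. Prrx1, a mesenchymal transcription factor, was the one called higher at 0.23 (adjusted p 0.0124) per the authors' deposited table. Lum and Fap were not analysed here.

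Markers of other cell types of the brain were low or mixed. Of 8 astrocyte markers 5 had a row, among them Gja1 (connexin 43) at a mean of 1957, called higher at 0.31, and Glul (glutamine synthetase) at 412, called higher at 0.44, per the authors' deposited table. The rest of these rows were low, with Aldh1l1 at a mean of 27.4, Aldoc at 10.2 and Slc1a2 at 1.62 per the authors' deposited table. Gfap, Aqp4, S100b, Mog, Mag, Cnp, Olig1, Olig2, Sox10, Aif1, Cx3cr1, P2ry12, Ptprc, Tyrobp, Kdr, Cldn5, Epcam, Krt18 and Cldn4 were not analysed here. Of 9 oligodendrocyte lineage markers 3 had a row, with Cspg4 (NG2, also a pericyte gene) at 5102 and called lower at -0.29, and Mbp at 2.00 per the authors' deposited table. Of 9 microglia and macrophage markers 4 had a row, with Cd68, a lysosomal protein found in other cells too, at 284 and called 2.82-fold higher, Tmem119 at 433 and called lower at -0.49, Csf1r at 48.0 and called higher at 0.95, and Itgam at 1.71 per the authors' deposited table. The endothelial markers with a row, 4 of 6, had means from 4.96 to 5.86 and no adjusted p, with 1 unadjusted p under 0.05, per the authors' deposited table. Of 6 epithelial markers 3 had a row, and Cdh1 was the highest at 183, with 0 calls per the authors' deposited DESeq2 table and 0 at an unadjusted p under 0.05. The summed means over the rows of a list were 2408 for astrocytes, 5133 for the oligodendrocyte lineage, 767 for microglia and macrophages, 21.9 for endothelium and 194 for epithelium. They were 3155 for mature neurons and 547417 for mesenchymal cells. These sums depend on the number of rows, were not divided by length and can rest on 1 gene. Cspg4 alone accounted for 5102 of the oligodendrocyte sum and Gja1 for 1957 of the astrocyte sum. The median means were 27.4, 28.8, 166, 5.54 and 8.36 in the order first given, 175 for mature neurons and 1985 for mesenchymal cells. In bulk RNA, fewer cells of a type and less RNA per cell cannot be told apart, and the part that any such cells may have in the changes of Tubb3 and Dbn1 was not tested.

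**Figure D4:**
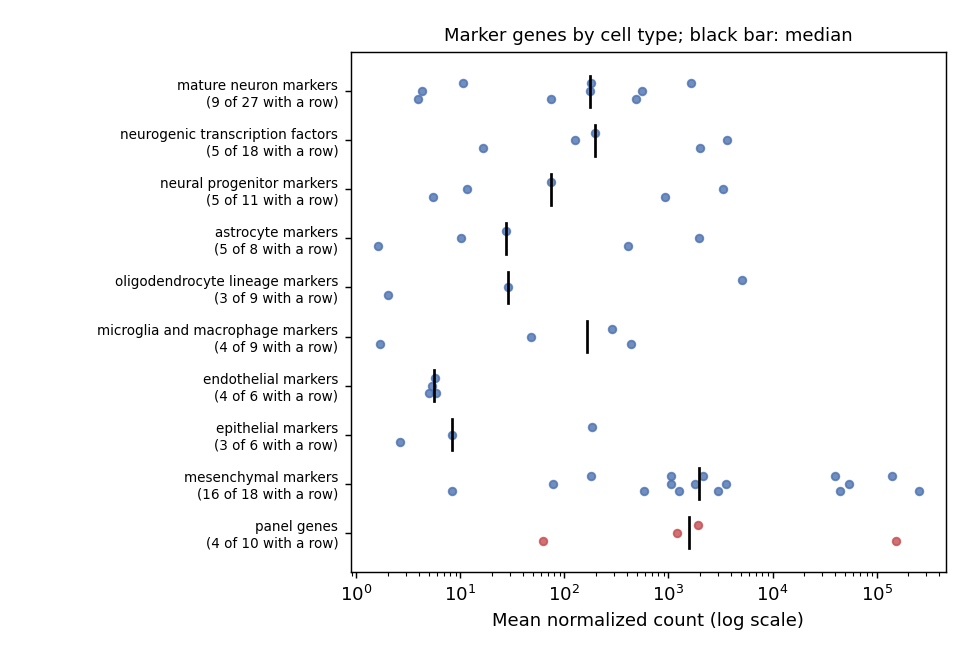
Mean normalized counts (x axis, log scale) of the marker genes with a row, by cell type (y axis, with the number of listed genes that had a row), where each point is a gene and each black bar the median. The mesenchymal markers reach 254004 and have the highest median, and the 4 panel genes in red run from 62.1 for Eno2 to 152806 for Vim.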

How the data were processed

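Per the submitters' processing notes, the data were processed with DESeq2 and the genome build mm9, with no version given. The aligner, read counter and annotation are not given in the sources used here. The authors deposited 1 comparison table. Per the file headers it holds a mean normalized count per gene (a normalized signal), a log2 fold change with its standard error, a test score and p-values before and after adjustment. The depth of each library is unknown. Benjamini-Hochberg adjustment over 13597 genes gave back the deposited adjusted p-values, and the other genes stayed without a call.

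From this table, calls were counted at an adjusted p under 0.05, 95% intervals were computed as normal intervals from the standard errors, and levels were divided by canonical transcript length (GENCODE M39, 85.9% of genes), which need not be the annotation of the authors' counts. Standard errors were compared with the median of the 100 genes on each side in order of mean. The panel and the lists were chosen with earlier results of these data known, so the lists are no independent evidence. Named in the text are all panel genes and, of each list, the gene with the highest level per kb, those without a row and up to 4 called genes with the smallest adjusted p. Other genes were named after their values were seen. A few listed genes are not reported here. No gene could be named for a pattern like that of a panel gene, since there are no values per library. The list of 12 reference genes served for centring and, with Actb, as a comparator of level. It had a median of -0.01, and gave 1 call higher and 2 lower.

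Of the code, only the functions for the p-value and its adjustment, used in the alternative settings, were tested on simulated data. Python 3.11.15, pandas 2.3.3, SciPy 1.17.1, Biopython 1.88 and matplotlib 3.10.9 were used.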

Additional observations from a re-analysis of the deposited data

How the results depend on the processing

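No paired analysis was possible because no values of single libraries were at hand. For the same reason another normalization, leaving out each replicate and the replicate block were not run. The count of 2 called panel genes, Dbn1 and Tubb3, was the same under 7 of 8 alternatives. With a null interval of 0.5 it was 0, since that setting tests for a change beyond 0.5. The calls over all genes moved by over 1.5 times from 2741 to 1818 at an adjusted p under 0.01, 774 with Bonferroni, 1202 with a null interval of 0.1 and 172 with one of 0.5, all stricter by construction. The 38 called genes of the other lists, reference genes included, became 13 with Bonferroni, 19 with a null interval of 0.1 and 8 with one of 0.5. Positive calls among all genes were 1230 of 2741 as deposited, 1385 of 2794 when centred on the reference genes and 1091 of 2708 when centred on genes with a mean of at least 100, so the split moved in opposite directions. Neither centring moved a panel gene across the threshold. The sign of each of the 4 panel genes could not have reversed, so its staying the same is no test. Only centring alters a fold change, by subtracting 0.013 (genes with a mean of at least 100) or -0.015 (reference genes). The value of Vim, nearest to no change, was -0.08. The percentile of the level moved by over 5 points for Tubb3 with the longest transcript, to 69.8, for Dbn1 with coding length, to 64.1, or with no division by length, to 77.3, and for Eno2 with no division by length, to 32.2. The other 8 values moved less.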
